A study of Homo sapiens with 12 samples.

Results

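Genes of glucose breakdown and of the hypoxia response, 42 of the 60664 genes in the count table, were followed in MDA-MB-231 cells kept for 24 h in neutral or acid medium. They were taken from the table by gene name. The rule itself uses no measured value, but the list was chosen with earlier results of these data known. The first class holds 23 glycolytic genes, from the glucose transporters SLC2A1 and SLC2A3 to the pyruvate dehydrogenase kinases PDK1 and PDK3. The second holds 19 known targets of the hypoxia-inducible factor that lie outside glycolysis, from ADM to RORA. MDA-MB-231 is an established human triple-negative breast cancer line with mesenchymal features, here of wild-type genotype and grown in high-glucose DMEM with fetal bovine serum and antibiotics under CO2. The 3 groups were medium of pH 7.4, pH 6.9 and pH 6.4, each with 4 libraries of polyadenylated RNA numbered as repeats 1 to 4. The middle group is labelled pH 6.9, whereas the treatment text names pH 6.7, and the label is used here. All groups were plated at pH 7.4 before the change of medium, and no library was labelled as hypoxic. A repeat is not stated to be a separate culture, so p-values measure only the spread between these samples, and a single line was used.

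Glycolysis splits glucose into pyruvate in the cytosol, and lactate dehydrogenase turns pyruvate into lactate, whose export with a proton acidifies the surroundings of many tumours. Hypoxia-inducible factor, a pair of an oxygen-labile alpha chain (HIF1A or EPAS1) and the stable chain ARNT, switches on many glycolytic genes along with genes for vessel growth, mitophagy and oxygen sensing. The prolyl hydroxylases EGLN1 and EGLN3 mark the alpha chain for destruction by the VHL ligase when oxygen is present. Breast cancer lines of this kind are known for high glucose use.

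Library totals ranged from 21.1 to 50.6 M counts (M, 1000000). Repeat 1 at pH 7.4 and repeat 2 at pH 6.9 had 17841 and 21628 detected genes, and the other libraries 23113 to 27384. The 6 markers of the line were all detected, with summed levels of 5552 to 7625 CPM (counts per 1000000 counts of the library). Of the 6, SPARC averaged only 2.34, 1.82 and 2.92 CPM at pH 7.4, 6.9 and 6.4. In each medium this was less than EPCAM, GATA3, PDGFRB, COL1A1 and PECAM1, which are listed for other cell types. Of the marker lists of other cell types, 6 fibroblast genes summed to 44.3 to 51.2 CPM at pH 7.4 and to 27.6 CPM or less at pH 6.4, and 6 luminal epithelial genes to 36.5 to 43.2 and 25.3 to 32.6 CPM. The leukocyte list, with CD3E and TYROBP at 0, reached at most 7.03 CPM, and the endothelial list, with CLDN5 at 0, at most 13.2 CPM. The part of these lists in the results was not tested.

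In strong acid, pH 6.4 against pH 7.4, the 2 classes did not move as blocks. The glucose transporter SLC2A3, the hexokinase HK2, the phosphofructokinase PFKP and the enolase ENO2 rose, while the pyruvate kinase PKM and the lactate dehydrogenase LDHA, which stand among the most abundant members, fell. Outside glycolysis the angiogenic factor VEGFA, the stress-responsive NDRG1 and the histone demethylase KDM4B rose, and the ankyrin repeat gene ANKRD37 fell. A gene was called changed at an adjusted p under 0.05 in edgeR's quasi-likelihood test, adjusted over all 17544 genes tested. All 42 members were among them. By this rule 6 of 23 glycolytic genes were called (26.1%; 4 higher, 2 lower) and 4 of 19 hypoxia-inducible genes (21.1%; 3 higher, 1 lower), against 30.3% of all genes tested. Without a block for the repeat number, the called share of either class was thus no higher than that of genes at large. Median log2 changes were -0.03 for the glycolytic and 0.07 for the hypoxia-inducible genes, beside -0.00083 for all genes tested. Scaling by library size alone gave 4 higher and 7 lower glycolytic genes, and moved the calls over all genes from 2737 higher and 2584 lower to 2137 and 3159. In bulk RNA, fewer cells of a kind and less RNA per cell cannot be told apart.

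Same-numbered libraries of these groups deviated together, and a fit with the repeat number as a block gave more calls. It called 12 glycolytic genes, with SLC2A1, PFKM, PFKFB3, TPI1, PGAM1 and ENO1 lower in addition, and 7 hypoxia-inducible genes, with EGLN3 and ZNF395 higher and ADM lower in addition. The share of all genes called was then 41.6%. With the block, 12 of 23 glycolytic genes lay above this share and 7 of 19 hypoxia-inducible genes below it, which was not tested. In this fit 4 glycolytic genes were higher and 8 lower, and 5 hypoxia-inducible genes were higher and 2 lower. The added changes ran from -0.42 for PGAM1 to 0.24 for ZNF395 on the log2 scale. In the same fit NDRG1 and KDM4B, which were called without the block too, changed by 0.42 and 0.26.

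**Figure D1:**
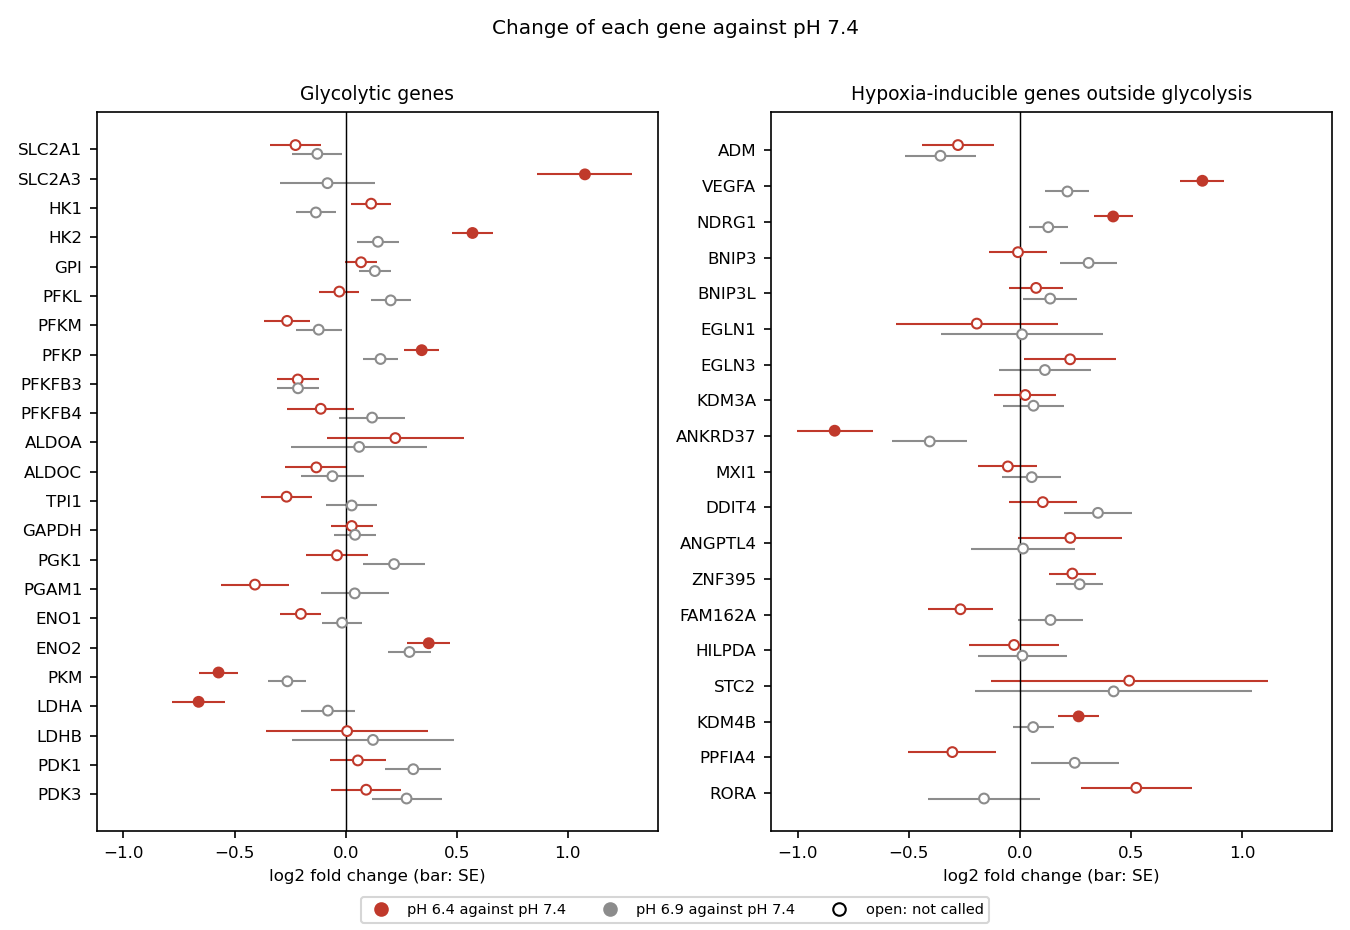
Log2 fold change of each gene at pH 6.4 (red) and pH 6.9 (grey) against pH 7.4 in the fit without the block. Bars are 1 standard error, and filled points mark genes called at an adjusted p under 0.05. SLC2A3 at 1.08 and LDHA at -0.66 bound the glycolytic genes at pH 6.4, and no point for pH 6.9 is filled.

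The largest rise among the 42 genes was at glucose uptake. SLC2A3, a transporter with high affinity for glucose, gave 65.3, 74.7, 57.7 and 54.8 CPM in repeats 1 to 4 at pH 7.4, 59.3, 74.2, 52.6 and 52.4 CPM at pH 6.9, and 138, 182, 71.4 and 141 CPM at pH 6.4. Repeat 3 at pH 6.4 stood below the highest value of the neutral libraries and the other 3 repeats stood well above all of them. The gene rose 2.11-fold, from a mean of 63.1 ± 8.89 CPM to one of 133 ± 45.8 CPM (SD, n = 4). On the log2 scale this was 1.08 with an SE of 0.21 (adjusted p = 0.0019), made up of 1.20 in the first pair of repeats (1 and 2) and 0.93 in the second (3 and 4). Its near copy SLC2A14 had 9 to 51 counts per library. SLC2A1, the basal transporter and the more abundant one per length, had means of 736, 674 and 629 CPM at pH 7.4, 6.9 and 6.4 (log2 -0.23 at pH 6.4, adjusted p = 0.146 without and 0.00258 with the block).

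Hexokinase traps glucose in the cell as its phosphate. HK2, the inducible form, gave 80.0, 93.6, 90.1 and 94.7 CPM at pH 7.4, 102, 98.6, 90.1 and 106 CPM at pH 6.9, and 125, 141, 115 and 151 CPM at pH 6.4. All libraries at pH 6.4 stood above all others. Its mean went from 89.6 ± 6.71 CPM to 133 ± 16.0 CPM (SD, n = 4), a 1.49-fold rise with a log2 change of 0.57 (SE 0.09, adjusted p = 0.000571). The first and second pair of repeats gave 0.62 and 0.54. HK1, the constitutive form, averaged 286 CPM at pH 7.4 and 309 CPM at pH 6.4 (log2 0.11, adjusted p = 0.369). The isomerase GPI, which follows in the chain, averaged 294.5 and 309 CPM.

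Phosphofructokinase commits the sugar to glycolysis, and of its 3 genes only PFKP was called without the block. PFKP, the platelet form, gave 322, 322, 290.2 and 282 CPM at pH 7.4, 334, 371, 320.2 and 332 CPM at pH 6.9, and 389.7, 404, 353 and 397 CPM at pH 6.4. The neutral and strongly acid libraries did not overlap, and those at pH 6.9 lay across the gap. PFKP rose 1.27-fold from a mean of 304 ± 21.3 CPM to one of 386 ± 22.8 CPM (SD, n = 4). The log2 change of 0.34 (SE 0.08, adjusted p = 0.00453) was 0.31 and 0.40 in the pairs of repeats. The liver form PFKL had a log2 change of -0.03 and the muscle form PFKM one of -0.26 (adjusted p = 0.0694 without and 0.0223 with the block). The regulatory kinases PFKFB3 and PFKFB4, which set the activator fructose bisphosphate, had changes of -0.21 and -0.11, and PFKFB3 passed at -0.22 with the block (adjusted p = 0.0147).

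The middle of the pathway, from aldolase to phosphoglycerate mutase, held no called gene without the block, whereas TPI1 and PGAM1 were called lower with it. The triose isomerase TPI1 averaged 646 CPM at pH 7.4 and 538 CPM at pH 6.4 (log2 -0.27, adjusted p = 0.0914 without and 0.00534 with the block). GAPDH, often used as a reference gene, averaged 2729, 2811 and 2782 CPM at pH 7.4, 6.9 and 6.4 (log2 0.03, SE 0.10), and its libraries overlapped throughout. The phosphoglycerate kinase PGK1 stood at 1162 and 1131 CPM and the mutase PGAM1 at 106 and 79.8 CPM (log2 -0.41, adjusted p = 0.0586). PGAM1 was called under 8 of 23 alternative settings, among them the block (-0.42, adjusted p = 0.000334), leaving out repeat 1 at pH 7.4 and leaving out repeat 3 at pH 6.4. The aldolases ALDOA and ALDOC averaged under 16 CPM in every medium. The level of ALDOA is uncertain, because 42.3% of its exon bases are shared with another annotated gene on the same strand.

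ENO2, the neuronal form of enolase and the minor one here, gave 157, 154, 136 and 133 CPM at pH 7.4, 189, 194, 161 and 163 CPM at pH 6.9, and 205, 162, 203 and 182 CPM at pH 6.4. Every acid library stood above every neutral one, while the 2 acid media overlapped. The rise at pH 6.4 was 1.30-fold (log2 0.37, SE 0.10, adjusted p = 0.0097), from 145 ± 11.97 CPM to 188 ± 20.4 CPM (SD, n = 4). The first pair of repeats gave 0.25, which was not called (adjusted p = 0.158), and the second 0.53. ENO1, the ubiquitous form, averaged 3377, 3339 and 2937 CPM (log2 -0.20, adjusted p = 0.112 without and 0.0138 with the block).

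At the end of the pathway both abundant enzymes fell. PKM, the pyruvate kinase that makes the last ATP of glycolysis, gave 4088, 3796, 3699 and 3434 CPM at pH 7.4, 3388, 3042, 3225 and 2866 CPM at pH 6.9, and 2631, 2438, 2699.5 and 2334 CPM at pH 6.4. The 3 media formed separate, descending ranges. The mean of PKM fell 1.49-fold, with 3754 ± 270.0 CPM in neutral and 2525 ± 169 CPM in strongly acid medium (SD, n = 4). The log2 change was -0.57 (SE 0.09, adjusted p = 0.000306), and the pairs of repeats gave -0.63 and -0.49.

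LDHA, which makes lactate from pyruvate, gave 3252, 3168, 3220.1 and 2779 CPM at pH 7.4, 3236, 2818, 3114 and 2581 CPM at pH 6.9, and 2080.0, 1672, 2422 and 1677 CPM at pH 6.4. Neutral and mildly acid libraries overlapped, and all strongly acid ones stood below both. With means of 3105 ± 219.8 CPM in neutral and 1963 ± 361 CPM in strongly acid medium (SD, n = 4), LDHA fell 1.58-fold. Its log2 change was -0.66 (SE 0.12, adjusted p = 0.00111), with -0.77 and -0.54 in the pairs of repeats. The kinases PDK1 and PDK3, which inhibit pyruvate dehydrogenase, had changes of 0.05 and 0.09 and were not called. Of these 6 glycolytic calls, SLC2A3, HK2 and LDHA did not pass within repeats 3 and 4 alone (adjusted p = 0.0765, 0.0675 and 0.0965). All 6 kept their direction in both pairs of repeats, which are parts of the libraries that gave the calls.

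**Figure D2:**
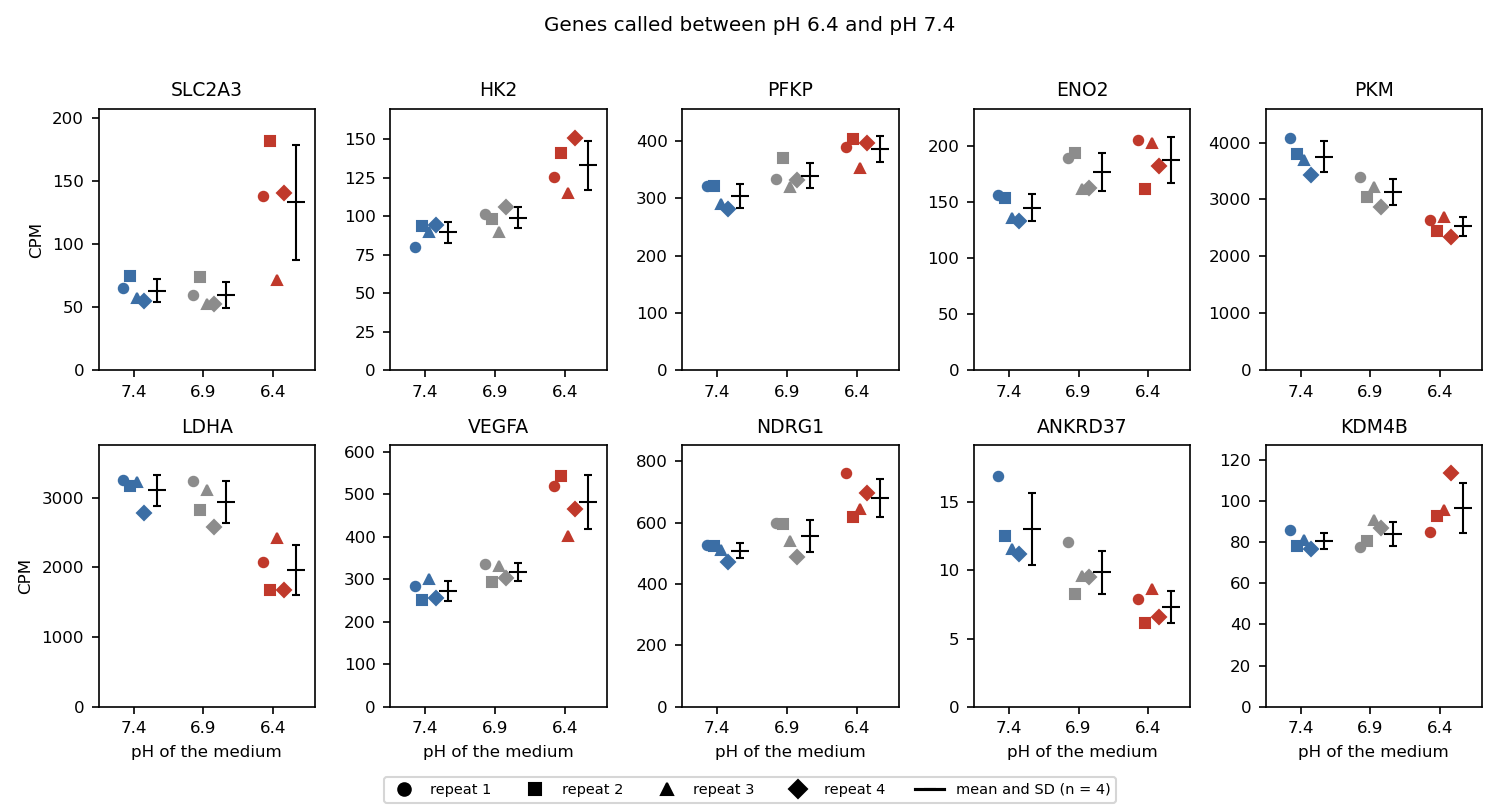
CPM of the 10 genes called between pH 6.4 and pH 7.4 without the block, in each of the 12 libraries. The marker shape gives the repeat and the bar the mean and SD (n = 4). PKM descends from a mean of 3754 to 2525 CPM over the media, and SLC2A3 in repeat 3 at pH 6.4 lies at 71.4 CPM, under the other 3 repeats.

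Glycolytic messages made up a sizeable part of each library. The 23 glycolytic genes took 1.64% to 1.87% of all counts at pH 7.4, 1.59% to 1.79% at pH 6.9 and 1.24% to 1.60% at pH 6.4. The strongly acid libraries lay below all neutral ones. ENO1, GAPDH, LDHA and PKM together averaged 1.32%, 1.24% and 0.986% of counts over the media, with SDs of 0.0655, 0.0796 and 0.134 (n = 4). The 19 hypoxia-inducible genes took 0.171% to 0.202%, 0.198% to 0.227% and 0.200% to 0.240%. Per kilobase of exon at pH 7.4, GAPDH led with 916 CPM, followed by ENO1 with 640.1, LDHA with 500.0 and PKM with 438. STC2 and RORA were lowest with 0.188 and 0.236 CPM per kilobase, and 25 of 42 members reached 10.

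Among the secreted signals, VEGFA, the main growth factor for blood vessels, gave 284, 251, 300.3 and 254 CPM at pH 7.4, 336, 294, 332 and 302 CPM at pH 6.9, and 518, 542, 401 and 464 CPM at pH 6.4. The strongly acid libraries stood above all others, and the other 2 media overlapped. VEGFA rose 1.77-fold, its mean being 272 ± 23.8 CPM in neutral and 481 ± 62.7 CPM in strongly acid medium (SD, n = 4). The log2 change was 0.82 (SE 0.10, adjusted p = 7.49e-05), with 0.99 in the first and 0.65 in the second pair of repeats. ADM, a vasodilator peptide, averaged 40.1, 31.3 and 33.1 CPM (log2 -0.28, adjusted p = 0.211 without and 0.0128 with the block). Without repeat 4 at pH 6.4 ADM was also called, with an adjusted p in the range of its alternatives from 0.0128 to 0.505. The lipase inhibitor ANGPTL4 and the glycoprotein STC2 averaged under 4 CPM in every medium, and STC2 had no count in repeat 1 at pH 7.4.

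NDRG1, a cytoplasmic gene raised by hypoxia and other stresses, gave 528, 524, 510.3 and 473 CPM at pH 7.4, 598, 596, 542 and 488 CPM at pH 6.9, and 761, 620.0, 646 and 697 CPM at pH 6.4. Only the strongly acid libraries stood clear of the rest. NDRG1 rose 1.34-fold, its mean being 509 ± 25.1 CPM in neutral and 681 ± 62.2 CPM in strongly acid medium (SD, n = 4). The log2 change was 0.42 (SE 0.09, adjusted p = 0.00275), and the pairs of repeats gave 0.40 and 0.46. DDIT4, an inhibitor of mTOR, averaged 156, 199 and 168 CPM and was not called. The MYC antagonist MXI1 and the nuclear receptor RORA had log2 changes of -0.05 and 0.52, and the RORA libraries at pH 6.4, from 4.85 to 7.10 CPM, did not overlap those at pH 7.4 although the gene was not called (adjusted p = 0.129).

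ANKRD37, a small ankyrin repeat protein, gave 16.9, 12.5, 11.6 and 11.2 CPM at pH 7.4, 12.1, 8.27, 9.56 and 9.50 CPM at pH 6.9, and 7.88, 6.15, 8.64 and 6.61 CPM at pH 6.4. The neutral and strongly acid ranges were apart and the mildly acid one touched both. ANKRD37 fell 1.78-fold (log2 -0.83, SE 0.17, adjusted p = 0.00244), from 13.05 ± 2.63 CPM to 7.32 ± 1.15 CPM (SD, n = 4). The first pair of repeats gave -1.06, and the second -0.56, which was not called (adjusted p = 0.0791). Of its exon bases, 35.2% are also covered by UFSP2 on the opposite strand, which had 658 to 1562 counts per library against 193 to 606 for ANKRD37.

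KDM4B, a histone demethylase, gave 86.2, 78.2, 81.0 and 77.0 CPM at pH 7.4, 77.9, 80.6, 90.8 and 86.8 CPM at pH 6.9, and 84.9, 93.0, 95.7 and 114 CPM at pH 6.4. Repeat 1 at pH 6.4 lay under repeat 1 at pH 7.4, so the ranges overlapped. Its rise of 0.26 on the log2 scale (SE 0.09, adjusted p = 0.0404) was the weakest of the 10 calls and was lost under 12 of 23 alternatives, with adjusted p-values from 0.0220 to 0.458. Among these were the fits without repeat 2, 3 or 4 at pH 7.4, repeat 1 or 4 at pH 6.9, or repeat 2 or 4 at pH 6.4, and over all single libraries left out the adjusted p ranged up to 0.153. KDM3A, a related demethylase, averaged 110.3, 115 and 112 CPM.

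The mitophagy receptors and oxygen sensors were not called. BNIP3 averaged 232, 287 and 231 CPM over the media and BNIP3L 209, 229.9 and 220.0 CPM. The sensors EGLN1 and EGLN3 had log2 changes at pH 6.4 of -0.19 and 0.23, with SEs of 0.36 and 0.21. The mitochondrial protein gene FAM162A stood at -0.27, the lipid droplet gene HILPDA at -0.03, the liprin gene PPFIA4 at -0.30 and the zinc finger gene ZNF395 at 0.24. For EGLN3 and ZNF395 the fit with the repeat number as a block gave adjusted p-values of 0.0432 and 0.0144.

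Across both classes, 5 of 23 glycolytic and 4 of 19 hypoxia-inducible genes had libraries that did not overlap between pH 6.4 and pH 7.4, a state that 27.9% of all genes tested shared. The members called and the members not overlapping were nearly the same. SLC2A3 and KDM4B were called with overlapping libraries, and RORA was apart without a call.

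**Figure D3:**
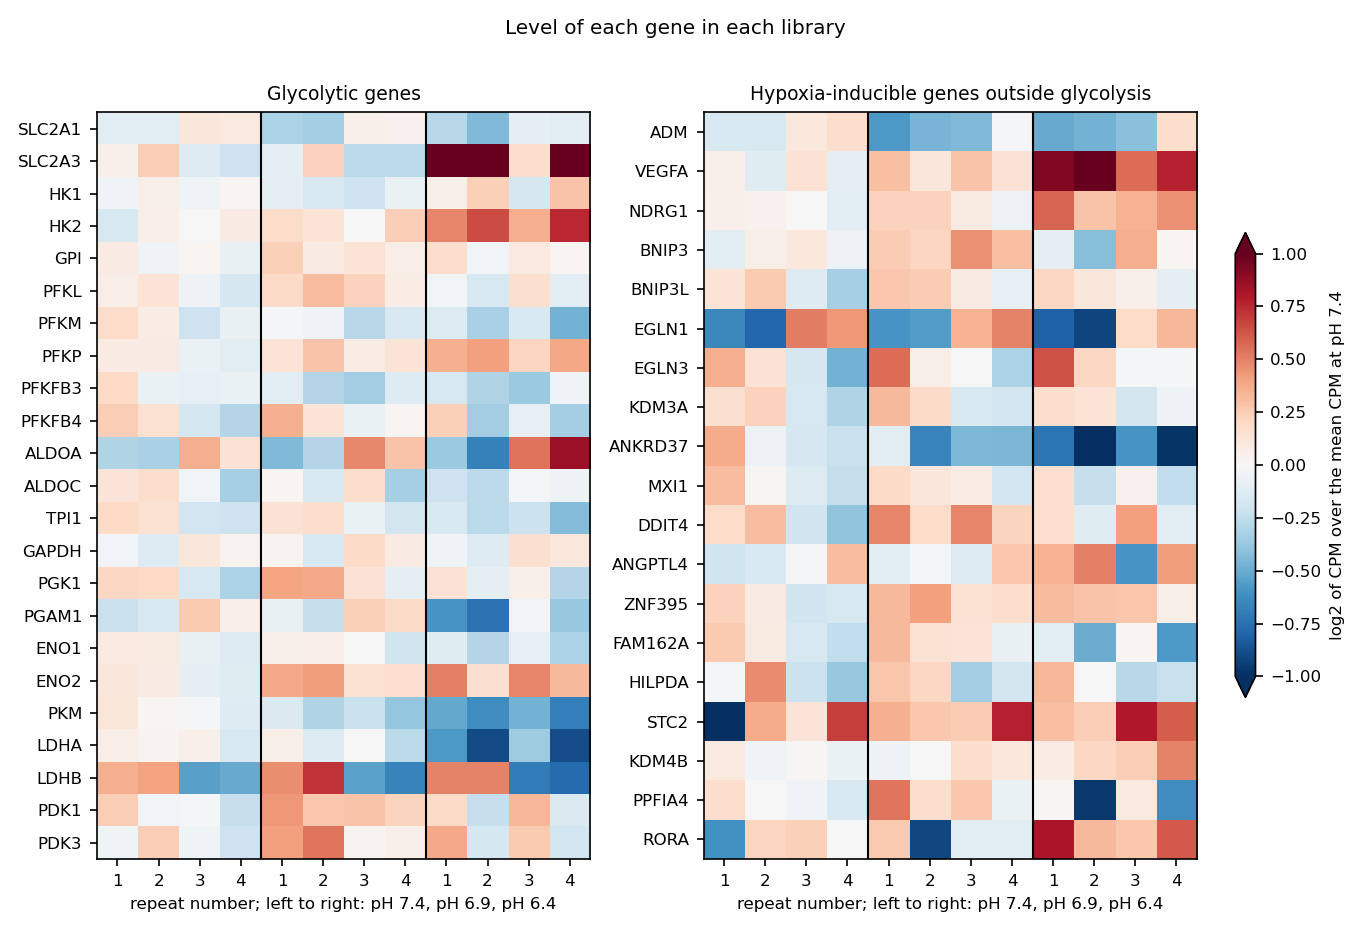
Log2 of each library's CPM over the gene's mean CPM at pH 7.4, with columns ordered by medium and repeat and colours reaching their limit at 1 in either direction; a value of 0 CPM takes the lowest colour. The colours of LDHB, EGLN1 and ALDOA differ between repeats 1 and 2 and repeats 3 and 4 in every medium, and VEGFA is red in all 4 libraries at pH 6.4.

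Mild acid, pH 6.9 against pH 7.4, gave no call among the 42 members in edgeR's test without the block, beside 0.724% of all genes tested (127 of 17544). At an unadjusted p under 0.05 stood 5 glycolytic and 6 hypoxia-inducible genes, beside 11.9% of all genes tested, and DESeq2 called 1 member, PKM (adjusted p = 0.0393). With the repeat number as a block, PKM and ADM were called lower and ZNF395 higher (adjusted p = 0.00559, 0.0262 and 0.0413), and 5.4% of all genes tested were called. Of the 4 correlations between same-numbered libraries of these groups, that of repeat 1 was only 0.0798 and the others were 0.160, 0.277 and 0.352. Because of the first, this fit is given as an alternative. Changes ranged from -0.26 for PKM to 0.30 for PDK1 among the glycolytic genes, and from -0.41 for ANKRD37 to 0.42 for STC2 among the others. The STC2 value was 0.0087 without repeat 1 at pH 7.4, which had no count of it. The medians were 0.04 and 0.11, with 14 of 23 and 16 of 19 genes above 0, beside a median of 0.01 over all genes tested. The libraries of ENO2 and BNIP3 lay above, and those of HK1, PFKFB3 and PKM below, those at pH 7.4 with no overlap. Those are 5 of 42 members, and 10.1% of all genes tested did the same.

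BNIP3, which directs mitochondria to autophagy, is one of the members whose mean was highest at the middle pH. It gave 214, 241, 249.9 and 222 CPM at pH 7.4, 276, 269, 319 and 285 CPM at pH 6.9, and 217, 172, 298 and 235 CPM at pH 6.4. Every mildly acid library stood above the neutral ones, while the strongly acid ones scattered on both sides (log2 0.31 at pH 6.9, SE 0.13, adjusted p = 0.345). The mean at pH 6.9 exceeded both other means for 10 of 23 glycolytic and 10 of 19 hypoxia-inducible genes, lay below both for 2 of each class, and fell between them for 11 and 7. These counts are given without a test.

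From pH 6.9 to pH 6.4, 6 members changed (14.3%) in the fit without the block, beside 17% of all genes tested. SLC2A3 rose by 1.16, HK2 by 0.43, VEGFA by 0.61 and NDRG1 by 0.29 on the log2 scale (SEs 0.21, 0.09, 0.10 and 0.09; adjusted p = 0.00492, 0.0097, 0.00364 and 0.0357). PKM fell by 0.31 and LDHA by 0.58 (SEs 0.09 and 0.12; adjusted p = 0.025 and 0.00735). That made 4 of 23 glycolytic genes, 2 in each direction, and 2 of 19 hypoxia-inducible genes, both higher. With library size as the only scaling the glycolytic calls were 2 higher and 4 lower, and those over all genes went from 1550 higher and 1438 lower to 1084 and 1756. Class medians were -0.12 and -0.04, with 17 of 23 and 11 of 19 genes below 0, and the median of all genes tested was -0.01. HK2, VEGFA, NDRG1 and RORA lay above and PKM and LDHA below with no overlap, 6 of 42 members against 20.4% of all genes tested. The comparison shares the pH 6.4 libraries with that against pH 7.4.

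With the repeat number as a block this step called 12 of 23 glycolytic genes, 4 higher and 8 lower. It called 6 of 19 hypoxia-inducible genes, 2 higher and 4 lower. The share of all genes tested was 31.1%. The glycolytic share lay above it and the hypoxia-inducible share close to it, which was not tested. The added genes were HK1 and PFKP upward, and PFKL, TPI1, PGK1, PGAM1, ENO1, PDK1, BNIP3, ANKRD37, FAM162A and PPFIA4 downward. PPFIA4 had the largest added change, -0.58 (adjusted p = 0.00999).

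Single libraries decided much of this step in the fits without the block. Without repeat 3 at pH 6.4, 9 glycolytic and 7 hypoxia-inducible genes were called, while calls over all genes went from 2988 to 4944. Without repeat 1 at pH 7.4, 4 hypoxia-inducible genes were called, and 1 without repeat 3 at pH 7.4, repeat 1, 3 or 4 at pH 6.9 or repeat 4 at pH 6.4. The call of NDRG1 was kept in 6 of 12 fits that left out 1 library (adjusted p 0.0176 to 0.106). That of PKM was kept in 8, and lost without repeat 1 or 3 at pH 6.9 or repeat 2 or 4 at pH 6.4 (adjusted p 0.00918 to 0.0854). Within repeats 3 and 4 alone no member was called, and no gene at all.

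Whether the second acid step differed from the first was tested as the change from pH 6.9 to 6.4 minus that from pH 7.4 to 6.9. In edgeR's test no member and 0% of all genes tested passed, with 10 members and 2025 genes at an unadjusted p under 0.05. DESeq2 called 0 members, 3 of which received no adjusted p, and 99 genes. Of all members SLC2A3 had the largest difference, 1.24 (SE 0.38, adjusted p = 0.357), followed by RORA at 0.85 and PPFIA4 at -0.80. BNIP3 stood at -0.63, PDK1 at -0.55 and LDHA at -0.50. Without repeat 3 at pH 6.4, 4 glycolytic and 1 hypoxia-inducible gene were called, among 1109 of all genes.

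Genes that encode forms of the same enzyme were also set against each other within each library. The ratio depends on transcript lengths, so only its change over the media is read, as a description. Of 11 pairs computed, 3 had libraries in both acid media that did not overlap those at pH 7.4, and the other 8 overlapped with pH 7.4 in both. Counts of HK2 over HK1 averaged 0.313 ± 0.0183, 0.380 ± 0.0112 and 0.431 ± 0.0153 (SD, n = 4) in order of falling pH. Those of ENO2 over ENO1 averaged 0.0429 ± 0.000413, 0.0530 ± 0.00335 and 0.0639 ± 0.00371. In both pairs the 3 media formed separate, ascending ranges. PFKP over PFKM averaged 4.14 ± 0.295, 5.01 ± 0.316 and 6.35 ± 0.976, with no overlap between either acid medium and pH 7.4. Its acid ranges were apart only narrowly, with a highest ratio of 5.3009 at pH 6.9 and a lowest of 5.3017 at pH 6.4. The transporter ratio SLC2A3 over SLC2A1 went from 0.0870 ± 0.0193 to 0.219 ± 0.0953 between pH 7.4 and 6.4, with overlapping libraries. The ratio of ENO2 to ENO1 varied little among neutral libraries, from 0.0425 to 0.0433.

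**Figure D4:**
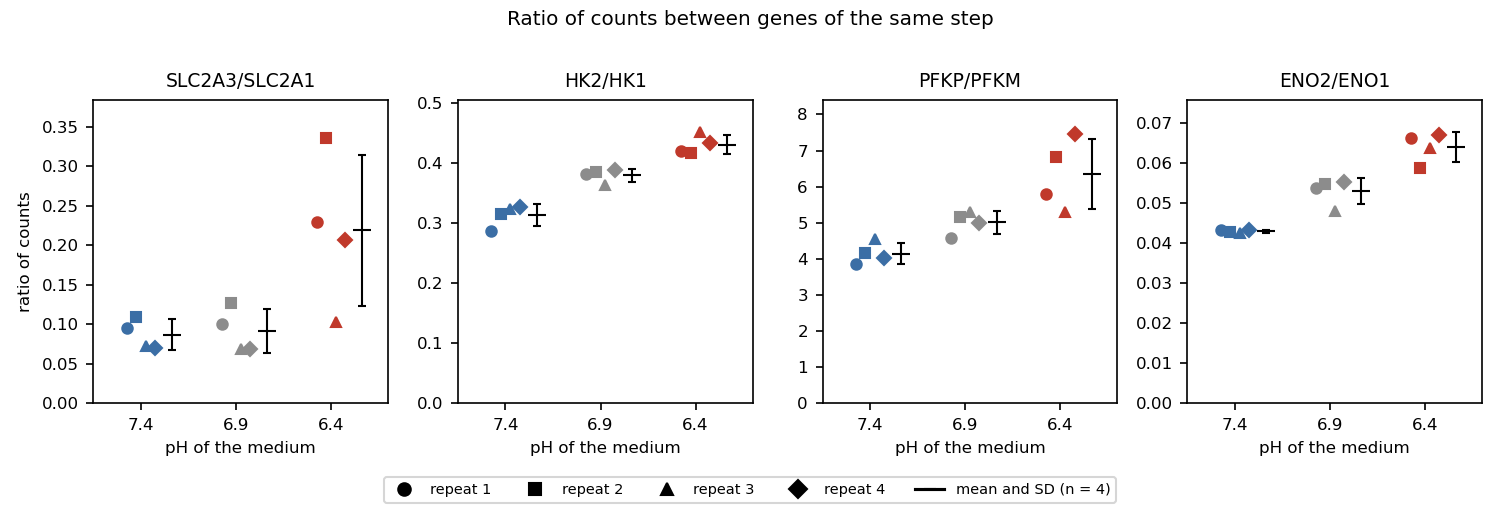
Ratio of counts between 2 genes of the same step in each library, with mean and SD (n = 4) and marker shapes giving the repeat. HK2 over HK1, ENO2 over ENO1 and, narrowly, PFKP over PFKM ascend with no overlap between media. Repeat 3 at pH 6.4 holds SLC2A3 over SLC2A1 at 0.103.

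Some members differed between the repeats in every medium. In 12 of 42 genes repeats 3 and 4 stood apart from repeats 1 and 2 in every medium, 6 higher and 6 lower, and 17.9% of all genes tested did the same. In 8 of the 12 no library of one pair overlapped any of the other. LDHB, the dehydrogenase form that favours pyruvate, had 30.9 to 39.7 CPM in repeats 1 and 2 and 14.1 to 16.9 CPM in repeats 3 and 4, 2.16-fold lower. EGLN1, the main oxygen-sensing hydroxylase, had 8.29 to 10.6 CPM in the first pair and 17.7 to 22.3 CPM in the second, 2.14-fold higher. Neither overlapped between the pairs, and over the media LDHB averaged 24.0, 26.1 and 24.1 CPM and EGLN1 15.6, 15.7 and 13.6 CPM.

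ALDOA was 1.80-fold higher in repeats 3 and 4, at 14.3 to 23.5 CPM against 8.09 to 10.6 CPM, and GAPDH 1.14-fold higher. Both ALDOA and LDHB share exon bases with another annotated gene on the same strand, so their levels are uncertain. EGLN3, HILPDA and KDM3A were 1.41-fold, 1.39-fold and 1.30-fold lower there. The remaining ones were SLC2A1, PGAM1 and ADM, higher, and BNIP3L and ZNF395, lower. The labels do not say what sets these repeats apart, and every medium holds both pairs. Of the 10 members called without the block none is among the 12, whereas 5 of the 12 (SLC2A1, PGAM1, ADM, EGLN3 and ZNF395) were called at pH 6.4 against pH 7.4 with the block. The change of each of the 10 had the same sign in both pairs, which are parts of the libraries that gave the calls and so no independent check. The median log2 change of the glycolytic genes at pH 6.4, by contrast, was -0.19 in the first pair of repeats and 0.09 in the second.

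**Figure D5:**
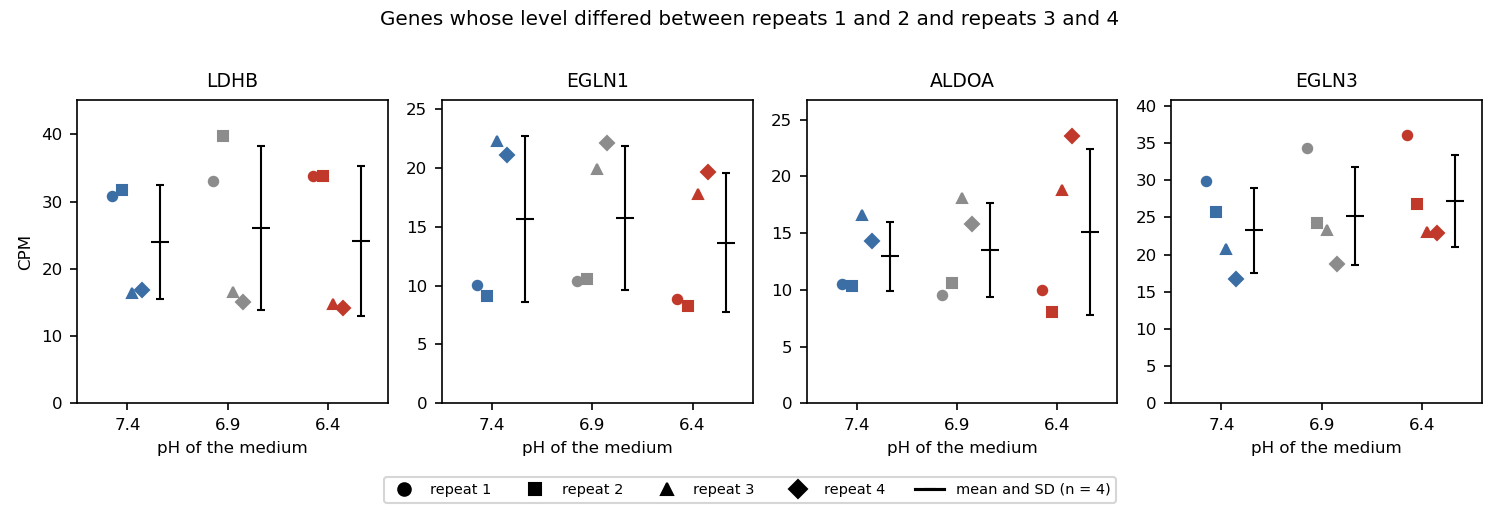
CPM of LDHB, EGLN1, ALDOA and EGLN3 in each library by medium, with marker shapes for repeats and bars for mean and SD (n = 4). Circles and squares (repeats 1 and 2) separate from triangles and diamonds (repeats 3 and 4) in all media, as for LDHB with 30.9 CPM or more against 16.9 CPM or less.

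Regulators of hypoxia-inducible factor were measured beside its targets. Of 17 listed regulators 16 were tested, and at pH 6.4 against pH 7.4, 3 rose and 1 fell, a share of 25% beside the 30.3% of all genes tested. The alpha chain HIF1A averaged 577, 499 and 675 CPM over pH 7.4, 6.9 and 6.4. Its change was 0.23 against pH 7.4 (adjusted p = 0.0776) and 0.44 against pH 6.9 (adjusted p = 0.00811), the latter a called rise. EPAS1, the other alpha chain, fell by 0.53 (adjusted p = 0.0408). ARNT, their shared partner, rose by 0.42 and VHL, which removes the alpha chains, by 0.35 (adjusted p = 0.0429 and 0.0291). USP20, a deubiquitinase that counters VHL, rose by 0.61 (adjusted p = 0.000366). No regulator was called at pH 6.9 against pH 7.4. In edgeR's test 3 of 16 stood there at an unadjusted p under 0.05, beside 11.9% of all genes tested.

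The neighbouring steps of carbon use changed in both directions. Of 20 further glycolytic and gluconeogenic genes 10 were tested, and 1 rose and 3 fell at pH 6.4, where 30.3% of all genes tested were called. PCK2, the mitochondrial enzyme that returns oxaloacetate to phosphoenolpyruvate, rose by 0.84, while the pyruvate carboxylase PC, the bifunctional regulator PFKFB2 and the glucose phosphatase G6PC3 fell by 0.77, 0.76 and 0.45. PCK2 and PFKFB2 were also called at pH 6.9, at 1.06 and -0.52, where 0.724% of all genes tested were called. Among 11 genes of pyruvate entry into the mitochondrion 2 rose and 3 fell. The phosphatase PDP1, which activates pyruvate dehydrogenase, rose by 0.72 and the kinase PDK2, which inhibits it, fell by 0.74. The subunits PDHB and PDHX went in opposite directions, at -0.49 and 0.38.

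Further hypoxia-inducible genes also changed in both directions. Of 31 listed 29 were tested, of which 7 rose and 4 fell at pH 6.4, 37.9% beside 30.3% of all genes tested. At pH 6.9 none was called in edgeR's test, and 7 of 29 stood at an unadjusted p under 0.05, beside 11.9% of all genes tested. The transcription factor MAFF rose by 1.09. The membrane protein gene TMEM45A and the chemokine receptor CXCR4 fell by 1.02 and 0.99. The median change of this list was 0.11.

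The start regions of the members were read for the core motif that hypoxia-inducible factor binds, ACGTG or GCGTG on either strand, in the 250 bases before each RefSeq transcript start (GRCh38.p14). A palindromic CACGTG counts as a match on both strands. Windows were at hand for 36 of 42 members, and a gene with several starts has several windows. Of all 35116 windows 43.2% held a match, of 44 windows of glycolytic members 24 (54.5%), and of 17 windows of hypoxia-inducible members 14 (82.4%). For ACGTG alone the shares were 18.5%, 38.6% and 52.9%. These are shares of windows and not of genes, as the windows belong to 22 glycolytic and 14 hypoxia-inducible members. Several starts of HK1 and of PFKM gave many of the glycolytic windows without a match. By gene, every glycolytic member with a window had a match in at least 1, except LDHB, PGAM1, PKM and SLC2A1. The same held for every hypoxia-inducible member with a window, except EGLN3 and RORA. A match is no proof of binding, and no binding was measured. The windows of EGLN3, LDHB, PGAM1, PKM, RORA and SLC2A1 held no match, which says only that these letters are not in them.

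Matches occurred before genes that rose and before genes that fell. Stretches of 30 bases are printed for 2 members that rose (HK2, ENO2) and 2 that fell (LDHA, ANKRD37), picked after their changes were known, to let the sequences be set side by side. They are from RefSeq on the plus strand, 5′ to 3′, and capitals mark the motif.
HK2, chr2:74833885-74833914: tagccacggaccaCACGTcccatctcaggc
HK2, chr2:74834063-74834092: agccaatggGCGTGcgCACGTcactgatcc
ENO2, chr12:6914449-6914478: cacccgcgctcgtACGTGcgcctccgccgg
LDHA, chr11:18394366-18394395: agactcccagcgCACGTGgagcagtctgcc
LDHA, chr11:18394470-18394499: gactcaCACGTGggttcccgCACGTccgcc
ANKRD37, chr4:185396676-185396705: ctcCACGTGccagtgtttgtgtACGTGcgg
The palindrome CACGTG was found in windows of HK2, which rose, and of LDHA and ANKRD37, which fell; the HK2 window that holds it is not the one printed. All but the first HK2 stretch reach past the start of the gene in GENCODE 29, so some bases may be transcribed.

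For some members the counts may not be their own alone or may be incomplete, because the counting rules are not stated. Among the called genes in GENCODE 29 (GRCh38), SLC2A3 lies at chr12:7919230-7936275, HK2 at chr2:74833981-74893359, LDHA at chr11:18394388-18408425, VEGFA at chr6:43770184-43786487 and PKM at chr15:72199029-72231822. ALDOA had only 357 to 800 counts per library, and 42.3% of its exon bases are shared on the same strand with the annotated gene AC093512.2, so its level is uncertain. LDHB shares 33.4% of its exon bases with AC010197.2 and ZNF395 34.9% with FBXO16, both on the same strand, and DDIT4 41.2% with DDIT4-AS1 on the opposite one. Pseudogenes named after members, 62 for GAPDH, 39 for BNIP3 and 13 for PGAM1 among them, held at most 3.74% of the member's counts in any library.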

How the data were processed

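The authors deposited raw counts of reads per gene for 12 libraries, 4 in each of 3 media. The submitters' processing notes name STAR, featureCounts and the build GRCh38.p13. Tool versions, annotation, strand setting and the handling of multiply mapped reads were not stated in the labels used. Groups and repeat numbers came from the labels. From the deposited counts, genes passing filterByExpr were scaled by TMM and fitted in edgeR 4.0.16 (R 4.3.3) with 1 term per medium over all 12 libraries by the robust quasi-likelihood test, with Benjamini-Hochberg adjustment over all genes tested. CPM values are counts per 1000000 of the TMM-scaled library size. The method was tested on simulated data. Alternatives were another scaling or filter, DESeq2 1.42.0, a repeat block, only the 2 groups compared, subsets of libraries, and each library left out.

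Same-numbered deviations from the group means correlated by 0.113 to 0.262 between pH 6.4 and pH 7.4 and by 0.264 to 0.470 between pH 6.4 and pH 6.9. The calls with the block are therefore given there beside those without it. Log2 changes, SEs and adjusted p-values are from the fit without the block unless another fit is named. Between pH 6.9 and pH 7.4 the correlations were 0.0798, 0.160, 0.277 and 0.352 for repeats 1 to 4. Because of the first, the samples were taken as unpaired there, with the blocked fit given as an alternative. The others lay within or above the range found between pH 6.4 and pH 7.4. The members and further lists were chosen with earlier results of these data known. Members called in any comparison are given library by library, and the rest by means, ranges and counts; of each further list up to 4 called genes of largest change are named, plus HIF1A, EPAS1, ARNT and VHL. For 1 gene of these lists the values are not reported here.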

Additional observations from a re-analysis of the deposited data

Results flagged for a closer look

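In 4 of 126 groups of 4 libraries (42 members in 3 media), 1 library lay far from the other 3 by Dixon's criterion, where about 6.3 would be met by chance (1 in 20). PFKFB3 stood at 131 CPM in repeat 1 at pH 7.4, with the others at 108 to 109.5 CPM. ADM stood at 45.2 CPM in repeat 4 at pH 6.4, with the others at 28.4 to 29.96 CPM. ZNF395 stood at 68.6 CPM in repeat 4 at pH 6.4, with the others at 79.9 to 82.0 CPM. STC2 stood at 1.97 CPM in repeat 4 at pH 6.9, with the others at 1.37 to 1.47 CPM.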

How the results depend on the processing

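Each of the 42 members was refitted under 23 alternatives per comparison, and no call changed sign. Of 10 calls at pH 6.4 against pH 7.4, PFKP, PKM, VEGFA and NDRG1 passed in all 23. Of 6 calls against pH 6.9 none did. Depth limits STC2, RORA and ANGPTL4, at a few CPM.

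For pH 6.4 against pH 7.4, library size alone gave 11 glycolytic calls, the replicate block 12 and 7 (glycolytic, then hypoxia-inducible), and repeats 3 and 4 alone 3 and 2, with 1528 of all genes. The glycolytic median was -0.187 in repeats 1 and 2 and 0.0933 in repeats 3 and 4. For pH 6.9 against pH 7.4, calls over all genes were 201 without a filter, 559 in DESeq2, 947 with the block, 250 with only the 2 groups, 7 and 0 in the first and last pair of repeats, and 20 without the 2 libraries with fewest genes. The block gave 1 glycolytic (PKM) and 2 hypoxia-inducible calls (ADM, ZNF395) there, and DESeq2 1 glycolytic call. For pH 6.4 against pH 6.9, hypoxia-inducible calls were 1 with library size alone, 5 in DESeq2, 6 with the block, 1 with only the 2 groups and 0 in repeats 3 and 4. Glycolytic calls were 12 with the block, 7 in repeats 1 and 2 and 0 in repeats 3 and 4, and those over all genes 5456, 1906 and 0. For the difference of the steps, all genes gave 13 calls without a filter and 99 in DESeq2. Fits to a pair of repeats hold fewer libraries; otherwise the cause was not tested.

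With 1 library left out, calls over all genes ranged from 3795 to 6411 (pH 6.4 against 7.4), 39 to 306 (6.9 against 7.4), 1171 to 4944 (6.4 against 6.9) and 0 to 1109 (difference of steps). Leaving out repeat 3 at pH 6.4 gave the highest of each. The count at pH 6.9 against 7.4 was 75, 80, 39 and 76 without repeats 1 to 4 at pH 7.4, 66, 48, 74 and 53 without those at pH 6.9 and 83 without repeat 1 at pH 6.4. That at pH 6.4 against 6.9 was 1570, 1628 and 1880 without repeats 1, 3 and 4 at pH 6.9, and 1171 and 1231 without repeats 2 and 4 at pH 6.4. Glycolytic calls ranged from 6 to 9, 0 to 0, 3 to 9 and 0 to 4, and hypoxia-inducible calls from 3 to 5, 0 to 0, 1 to 7 and 0 to 1. Among the 42 members the block changed no call in these comparisons other than those named, and gave 0 calls for the difference of steps; the further lists were not refitted with it.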
